A study of Mus musculus with 9 samples.

Results

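Translation initiation factor genes were examined in 6620c1, a mouse pancreatic tumor cell line, over a course of nutrient and oxygen deprivation. The members were the rows of the gene table whose symbol begins with Eif and a digit from 1 to 6, without pseudogene rows and without the Y-linked copy of the eIF2 gamma gene. This gave 54 genes of 24493 rows. The kinases that phosphorylate eIF2 (4 Eif2ak genes) and the repressors that bind eIF4E (3 Eif4ebp genes) are described apart from the factors themselves. RNA was sequenced at day 0 and after 2 and 14 days in the deprivation medium, with 3 samples at each time. Per the labels the medium was DMEM with amino acids lowered to 20%, serum from fetal calves at 0.5% and 2.5 mM glucose, and the same medium is listed for the day 0 samples. The oxygen level and the culture before day 0 are not given there, and 6620c1 is a single line with no further treatment. The columns of all 9 samples carry the prefix WT, which is not explained. There was no time-matched culture in full medium, so the effects of deprivation and of days in culture cannot be told apart. The labels do not say whether the 3 samples of a day were separate cultures, so the p-values speak to sample spread alone, and that spread may be technical.

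Initiation brings the small ribosomal subunit, carrying the initiator tRNA, to the start codon of an mRNA. The initiator tRNA arrives bound to eIF2 and GTP, eIF2B recharges eIF2 after each round, eIF3 holds the small subunit and the mRNA together, and eIF4F (the cap-binding protein eIF4E, the scaffold eIF4G and the helicase eIF4A) loads the capped mRNA. The rate is set at 2 well known points. Kinases that sense stress phosphorylate the alpha subunit of eIF2, which turns it into an inhibitor of eIF2B, and 4E-BP proteins that mTORC1 no longer phosphorylates take eIF4E away from eIF4G. Low amino acids, low oxygen and damage in the endoplasmic reticulum act through these points, and mRNA levels of the factors do not report on phosphorylation or on protein amounts.

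Levels are TPM, relative transcript abundances that account for transcript length and add up to one fixed sum per library. Sequencing depth cannot be read from them, and no counting interval is given. Of the 54 genes, 53 reached 1 TPM in at least 3 samples and were tested. The gene left out was Eif4e3, an atypical cap-binding protein, which averaged (mean ± SD of 3 libraries, as for every mean given here) 0.299 ± 0.071 TPM at day 0, 0.771 ± 0.018 TPM at day 2 and 0.521 ± 0.249 at day 14. Changes are log2 fold changes of TPM + 1, which understate the change of low genes, with their standard error (SE) from limma, and a gene is called when its Benjamini-Hochberg adjusted p over all 12693 tested rows is under 0.05. The epithelial identity of the line was visible in the keratins: 6 of 7 ductal markers were at or above 1 TPM in every library, and their sum was 6810 to 8580 TPM at day 14 and 5480 to 7610 TPM at day 2, against 10800 to 11400 TPM at day 0. The marker below 1 TPM in some libraries was Epcam, and the list did not move one way. Krt7, Krt8 and Krt18 were called lower at both later times, and Krt19 at neither. Sox9 was called higher at both (1.79 at day 2 and 1.5 at day 14). Cdh1 (0.73) and Epcam (2.20) were called higher at day 14. At day 2 Epcam was called lower (-0.93) and Cdh1 was not called. What part these marker changes have in the results was not tested. The 4 acinar markers summed to at most 5.75 TPM, the 3 immune markers to at most 8.0, the 3 fibroblast markers to at most 3.12 and the 2 endothelial markers to at most 0.686 in any library. In a bulk sample, fewer cells of a type and less RNA per cell cannot be told apart. A single small RNA row, Mir6236, held a share of TPM that averaged 10.1 ± 1.62% at day 0, 16.8 ± 5.04% at day 2 and 12.2 ± 1.37% at day 14, with 22.5% in day 2 replicate 3, and what it takes is missing from every other gene of that library. With its row removed and the rest rescaled, 26 initiation genes fell and 13 rose at day 2. Of all 12883 genes tested then, 3664 fell and 4168 rose.

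At day 2 the initiation genes as a group, with kinases and repressors counted in, stood lower. Of the 53 tested genes, 26 fell and 9 rose against day 0, and 18 were not called. That is 49.1% lower and 17.0% higher, against 31.9% lower and 27.1% higher among all tested genes. The median change of the initiation genes was -0.55, while that of all tested genes was -0.0151. Of the calls at day 2, the repressors gave 2 of the rises and 1 of the falls, and the kinases gave none. The size of this imbalance depended on the scaling: 26 fell and 15 rose without the 20 most abundant rows, which moved the median of all genes to 0.15, and after quantile normalization 19 fell and 17 rose. Without those rows 3457 of all 13083 tested genes fell and 4563 rose. After quantile normalization 3470 of 12693 fell and 3688 rose. The median gap to all genes was -0.23 after quantile normalization and -0.54 with the deposited scaling. At day 14, 23 fell, 9 rose and 21 were not called against day 0. That is 43.4% lower and 17.0% higher, against 18.8% lower and 36.2% higher among all tested genes. Their median change was -0.31 and that of all tested genes 0.22. Of the day 14 calls, the kinases and the repressors each gave 2 of the rises and 1 of the falls. Median-of-ratios scaling moved the median of all genes to -0.05, and then 32 initiation genes fell and 4 rose. Of all 12662 genes tested there, 4027 fell and 3085 rose. With the deposited scaling 2389 of 12693 fell and 4601 rose. The gap of the initiation genes to all genes was -0.52 under median-of-ratios scaling and -0.53 with the deposited scaling.

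Day 2 and day 14 share the same day 0 libraries, so their values are set side by side without a test of their likeness. The 22 genes lower at both times span every class except the kinases: Eif1ad, Eif1ax, Eif2d, Eif2s3x, Eif5b, Eif2b1, Eif2b4, Eif2b5, Eif3b, Eif3d, Eif3g, Eif3i, Eif3l, Eif4a1, Eif4a3, Eif4e, Eif4e2, Eif4g1, Eif4h, Eif5a, Eif6 and the repressor gene Eif4ebp2. The 7 genes higher at both times were Eif3f, Eif3h, Eif4a2, Eif4b, Eif4g3, Eif4ebp1 and Eif4ebp3. Eif1b and Eif3k were called higher at day 2 and not at day 14, and Eif2s1, Eif2b2, Eif2b3 and Eif4enif1 lower at day 2 and not at day 14. The 3 genes called at day 14 and not at day 2 were all kinases, Eif2ak2 and Eif2ak3 higher and Eif2ak1 lower. No gene was called in opposite directions at the 2 times. The remaining 15 genes, called at neither time, were Eif1, Eif1a, Eif2a, Eif2s2, Eif5, Eif3a, Eif3c, Eif3e, Eif3j1, Eif3j2, Eif3m, Eif4e1b, Eif4g2, Eif5a2 and Eif2ak4.

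**Figure D1:**
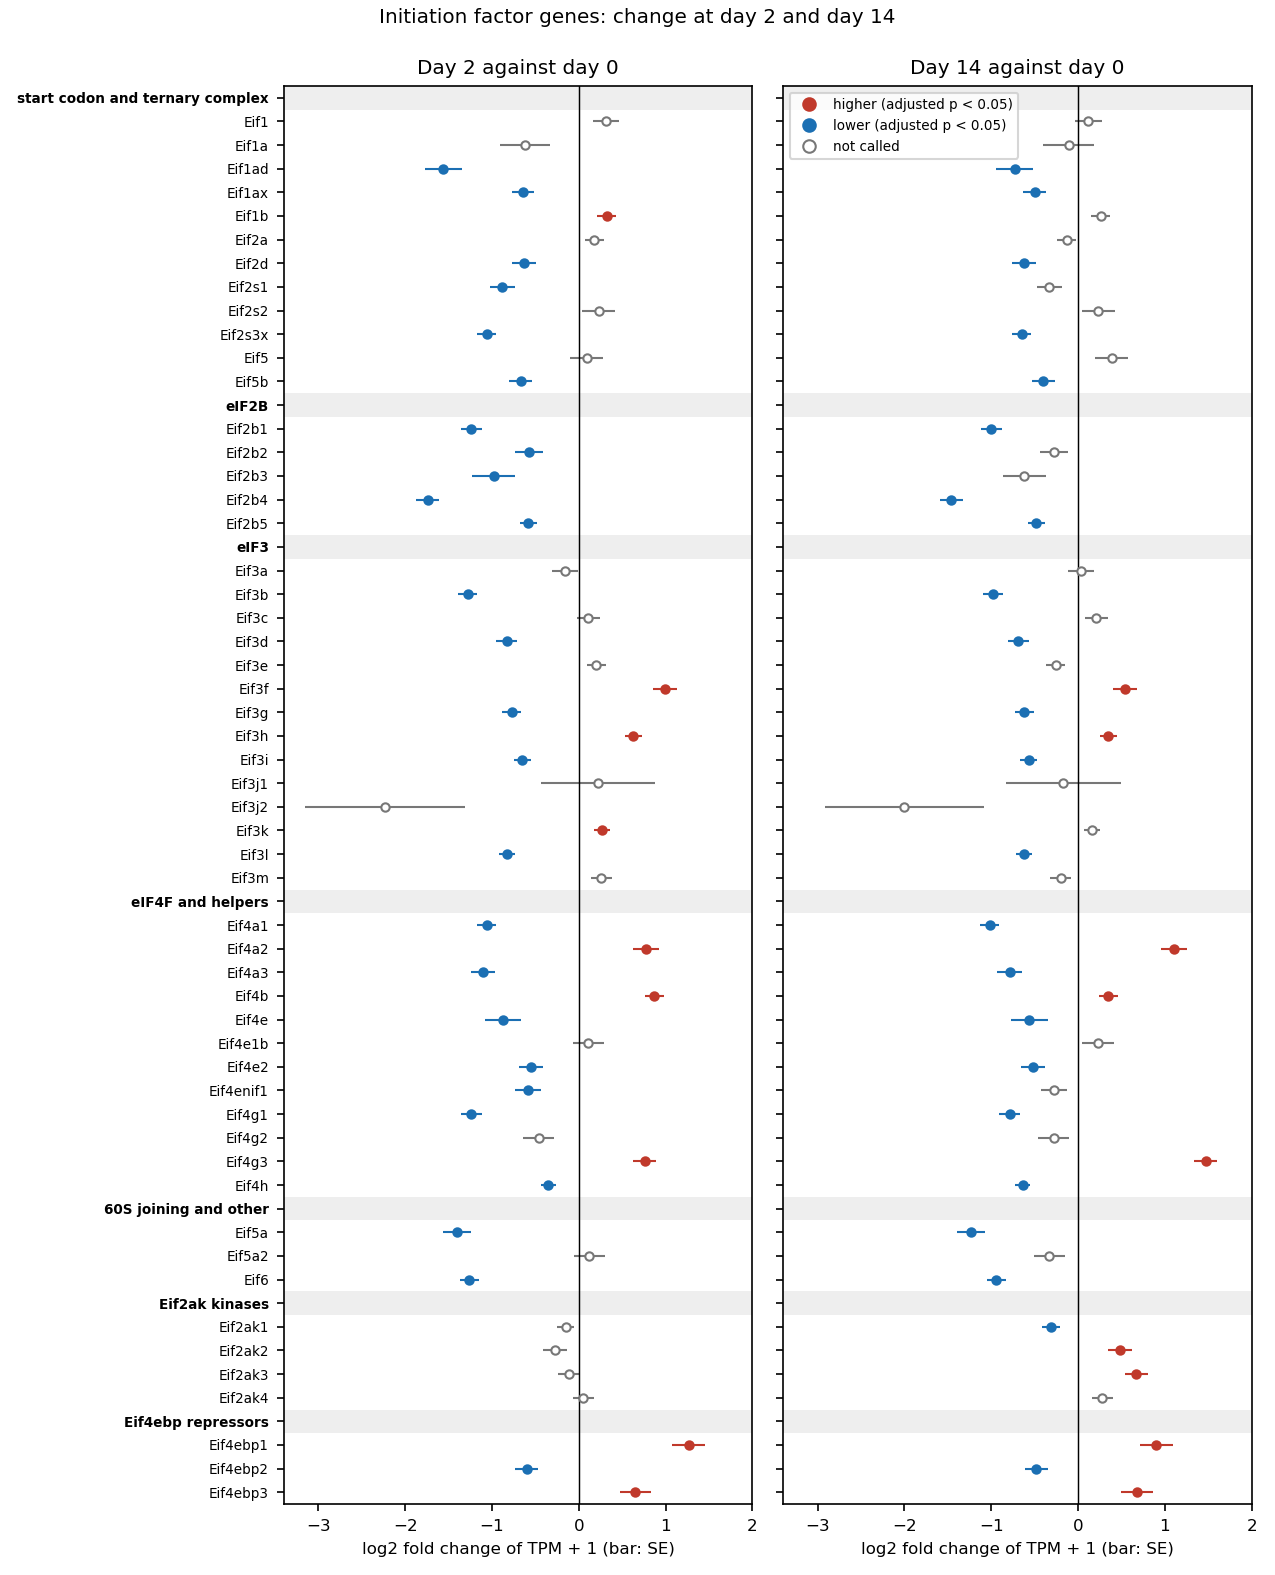
Log2 fold change of TPM + 1 (x axis; bars are SE) of the 53 tested initiation genes, grouped by role, at day 2 (left panel) and day 14 (right panel) against day 0; filled points passed an adjusted p of 0.05. Most filled points lie left of zero in each panel, 26 at day 2 and 23 at day 14, and the 4 kinases hold no filled point at day 2.

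Summed over the factors without kinases and repressors, the level was 11080 ± 552 TPM at day 0, 8536 ± 701 TPM at day 2 and 8442 ± 455 TPM at day 14. Every library at day 2 and day 14 stood below every day 0 library. Eif5a alone made up much of the gap: without it the sums were 9099 ± 554 TPM at day 0, 7778 ± 623 TPM at day 2 and 7587 ± 291 TPM at day 14. These sums are descriptions and were not tested.

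The genes of start codon selection and of the ternary complex split between members that fell and members that were not called. Of 12 genes, 6 fell and 1 rose at day 2, and 5 fell and 0 rose at day 14 (1 rose at an unadjusted p under 0.05 in limma), with medians of -0.62 and -0.23. The shares of all tested genes were 31.9% lower and 27.1% higher at day 2, and 18.8% and 36.2% at day 14. After quantile normalization 5 fell and 5 rose at day 2. For day 14, 7 fell and 0 rose under median-of-ratios scaling, and 4 fell and 1 rose after quantile normalization. The 3 subunits of eIF2, the carrier of the initiator tRNA, did not move together. Eif2s3x, the gamma subunit that binds GTP and the tRNA, had 176, 199 and 220.1 TPM at day 0, 88.0, 108 and 88.8 at day 2 and 124, 128 and 125 at day 14. All day 2 libraries were lowest, the day 14 libraries lay in between, and no 2 days overlapped; the change was -1.06 ± 0.11 at day 2 (adjusted p = 5.82e-05) and -0.65 ± 0.11 at day 14 (adjusted p = 0.00142). Eif2s1, the alpha subunit that the stress kinases phosphorylate, had 76.8, 88.2 and 93.7 TPM at day 0, 44.3, 55.1 and 40.7 at day 2 and 66.1, 63.3 and 76.3 at day 14. It fell by 0.88 ± 0.14 at day 2 (adjusted p = 0.000533) and was not called at day 14, where its change was -0.33 ± 0.14 (adjusted p = 0.0692). Eif2s2, the beta subunit that contacts eIF5 and eIF2B, averaged 138 ± 16.5 TPM at day 0, 165 ± 43.4 TPM at day 2 and 163 ± 25.2 at day 14 and was called at neither time (adjusted p = 0.318 and 0.324).

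Eif1ad, an eIF1A-like protein, showed the largest fall of this class. It had 66.0, 70.5 and 74.6 TPM at day 0, 18.0, 29.5 and 23.3 at day 2 and 31.9, 42.9 and 53.5 at day 14. The 3 days did not overlap: day 2 was lowest at -1.56 ± 0.21 against day 0 (adjusted p = 0.000209), and day 14 stood at -0.73 ± 0.21 (adjusted p = 0.015). Eif1, which guards against starts at the wrong codon, was the most abundant gene of the class and averaged 748 ± 82.6 TPM at day 0, 931 ± 151 TPM at day 2 and 814 ± 114 at day 14. Eif5, the GTPase activator of eIF2, averaged 188 ± 28.5 TPM at day 0, 203 ± 53.1 TPM at day 2 and 245 ± 22.8 at day 14. Neither was called against day 0, though Eif1 was called higher at day 2 with Mir6236 removed (adjusted p = 0.0177). Eif1b, a close copy of Eif1, was higher at day 2 by 0.32 ± 0.11 (adjusted p = 0.0312), a call lost when any 1 of 5 libraries was left out (adjusted p 0.0563 to 0.107): day 0 replicates 1, 2 and 3 and day 2 replicates 2 and 3. Eif1ax, which acts in the scanning complex together with eIF1, fell to 128 ± 12.5 TPM at day 2 and 142 ± 21.3 at day 14, against 199 ± 14.9 at day 0. Quantile normalization ended both calls (adjusted p = 0.223 at day 2 and 0.0639 at day 14). Its near copy Eif1a had 47.9, 115 and 86.1 TPM at day 2 and was not called. Eif1 and Eif1b, and Eif1a and Eif1ax, are close copies whose reads can be split in quantification, so their separate values are uncertain. Eif5b, the GTPase that joins the subunits, and Eif2d, which can deliver tRNA outside the eIF2 route, fell at both times, by 0.40 to 0.67 on the log2 scale. Without day 0 replicate 2 or 3 or day 14 replicate 1 or 3, the day 14 call of Eif5b was lost (adjusted p 0.0554 to 0.0878). Eif2a, an alternative tRNA carrier that is not a subunit of eIF2, was called at neither time.

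The guanine exchange factor eIF2B, which returns eIF2 to its GTP-bound form and is the target of phosphorylated eIF2, was lower in all of its 5 subunit genes at day 2 and in 3 of 5 at day 14, with medians of -0.98 and -0.62. Over all tested genes, the shares lower were 31.9% at day 2 and 18.8% at day 14. After quantile normalization, 4 of the 5 fell at day 2, without Eif2b2 (adjusted p = 0.144). The day 14 count also moved with the scaling: 5 fell under median-of-ratios scaling and 4 after quantile normalization. Of all genes tested there, 4027 of 12662 and 3363 of 12693 fell. Eif2b4, the delta subunit, had the largest fall of any called initiation gene in both comparisons with day 0. Its levels were 45.5, 45.6 and 41.7 TPM at day 0, 12.4, 13.3 and 11.8 at day 2 and 19.0, 13.9 and 13.9 at day 14. All 6 later libraries lay far below the day 0 range; the change was -1.74 ± 0.13 at day 2 (adjusted p = 7.74e-06) and -1.46 ± 0.13 at day 14 (adjusted p = 5.43e-05). Eif2b1, the alpha subunit that lets eIF2B sense phosphorylated eIF2, changed by -1.24 ± 0.12 at day 2 and -1.0 ± 0.12 at day 14 (adjusted p = 2.83e-05 and 0.000187). The catalytic epsilon subunit gene Eif2b5 was the most abundant at all 3 times and changed least among those called at both, by -0.58 ± 0.10 at day 2 and -0.48 ± 0.10 at day 14 (adjusted p = 0.000982 and 0.00341). Eif2b2 and Eif2b3, the beta and gamma subunits, changed by -0.57 ± 0.16 and -0.98 ± 0.25 at day 2 and were not called at day 14, where the libraries of Eif2b2 overlapped day 0. Eif2b3 had 13.2, 18.0 and 23.1 TPM at day 14 against 24.3, 28.0 and 31.5 at day 0, all below the day 0 range, with a change of -0.62 ± 0.25 (adjusted p = 0.0568), and 8 of 22 alternatives called it lower, median-of-ratios scaling (adjusted p = 0.00816) and quantile normalization (adjusted p = 0.0227) among them. The 5 genes summed to 305 ± 10.2 TPM at day 0, 167 ± 21.5 TPM at day 2 and 194 ± 15.1 TPM at day 14.

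The eIF3 complex, the largest of the initiation factors, changed its proportions more than its total. Its summed level over 14 genes was 3475 ± 163 TPM at day 0, 3455 ± 282 TPM at day 2 and 3158 ± 36.9 TPM at day 14. Under that sum, 5 subunits fell and 3 rose at day 2, and 5 fell and 2 rose at day 14. As shares, 35.7% were lower and 21.4% higher at day 2, near the 31.9% and 27.1% of all tested genes. At day 14, 35.7% were lower and 14.3% higher, against 18.8% and 36.2%. The balance turned with the scaling at day 2: 3 fell and 7 rose after quantile normalization, and 5 fell and 5 rose with Mir6236 removed. The 5 that fell at both times were Eif3b, Eif3d, Eif3g, Eif3i and Eif3l. Eif3b, the RNA-binding scaffold of the b-g-i module near the mRNA entry, had the largest change, with 295, 315 and 315 TPM at day 0, 129, 145 and 108 at day 2 and 158, 146 and 164 at day 14. No day 2 or day 14 library overlapped day 0, and the change was -1.28 ± 0.11 at day 2 (adjusted p = 1.86e-05) and -0.98 ± 0.11 at day 14 (adjusted p = 0.000165). Its partners Eif3g and Eif3i changed by -0.77 ± 0.11 and -0.65 ± 0.10 at day 2 and by -0.62 ± 0.11 and -0.57 ± 0.10 at day 14. Quantile normalization ended the day 2 calls of Eif3g (adjusted p = 0.0672) and Eif3i (adjusted p = 0.0844). Eif3d, which can bind the cap of some mRNAs, and Eif3l changed by -0.83 ± 0.12 and -0.83 ± 0.09 at day 2 and by -0.69 ± 0.12 and -0.62 ± 0.09 at day 14.

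The subunits that rose were Eif3f and Eif3h, which form a module with Eif3m, and Eif3k, which was called at day 2 and not at day 14. Eif3f had 259, 279 and 262 TPM at day 0, 604, 497 and 492 at day 2 and 369, 471 and 334 at day 14. Every later library was above every day 0 library, by 0.99 ± 0.14 at day 2 (adjusted p = 0.000265) and 0.54 ± 0.14 at day 14 (adjusted p = 0.00907). Eif3h, the most abundant subunit in all 9 libraries, had 458, 494 and 493 TPM at day 0, 847, 674 and 719.5 at day 2 and 636, 628 and 575 at day 14, a change of 0.63 ± 0.10 at day 2 (adjusted p = 0.000664) and 0.35 ± 0.10 at day 14 (adjusted p = 0.0174). The day 14 calls of these 2 genes ended under median-of-ratios scaling (adjusted p = 0.182 for Eif3f and 0.714 for Eif3h). The day 14 call of Eif3h was also lost without day 0 replicate 1, day 14 replicate 1 or day 14 replicate 2 (adjusted p 0.0507 to 0.0617). Eif3m, in the same trio, was not called against day 0, with 204, 244 and 243 TPM at day 0, 269, 319 and 245 at day 2 and 196, 206 and 198 at day 14. Its lowest day 2 library was just above its highest day 0 library, and its day 14 libraries overlapped day 0. Other scalings called Eif3m higher at day 2: median-of-ratios (adjusted p = 0.0368) and quantile normalization (adjusted p = 0.000154). So did removal of the 20 most abundant rows (adjusted p = 0.00341) or of Mir6236 (adjusted p = 0.0075). At day 14, median-of-ratios scaling called it lower (adjusted p = 0.00167). Eif3k was higher at day 2 by 0.27 ± 0.09 (adjusted p = 0.0301), a call lost without any 1 of the day 0 replicates or day 2 replicate 1 (adjusted p 0.0566 to 0.101).

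Eif3a and Eif3c, the large subunits that carry the core, were called at neither time, with 186 ± 31.4 and 252 ± 44.3 TPM at day 2 and 212 ± 25.7 and 268 ± 23.3 TPM at day 14, against 207 ± 19.4 and 231 ± 4.33 TPM at day 0. Eif3e was likewise not called against day 0. It was called higher at day 2 after quantile normalization (adjusted p = 0.00107) and with Mir6236 removed (adjusted p = 0.0213). At day 14 it was called lower under median-of-ratios scaling (adjusted p = 0.0019). Among the 12 subunits a to m other than j, the ratio of the highest to the lowest averaged 2.46 ± 0.031 at day 0, 5.98 ± 1.09 at day 2 and 4.40 ± 0.40 at day 14, and it did not overlap between day 0 and either later day. The lowest subunit was Eif3e in the 3 day 0 libraries, and Eif3b or Eif3d in 5 of the 6 later ones. For the loosely bound subunit eIF3j the table holds 2 near-identical copies, Eif3j1 and Eif3j2, whose reads can be split either way. Eif3j2 ranged from 2.34 to 86.7 TPM over the 9 libraries, and neither copy was called. Their sum, which the split does not affect, was 71.0, 92.9 and 96.7 TPM at day 0, 39.7, 47.4 and 32.3 at day 2, and 47.6, 45.3 and 49.7 at day 14, so that every later library was below day 0.

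**Figure D2:**
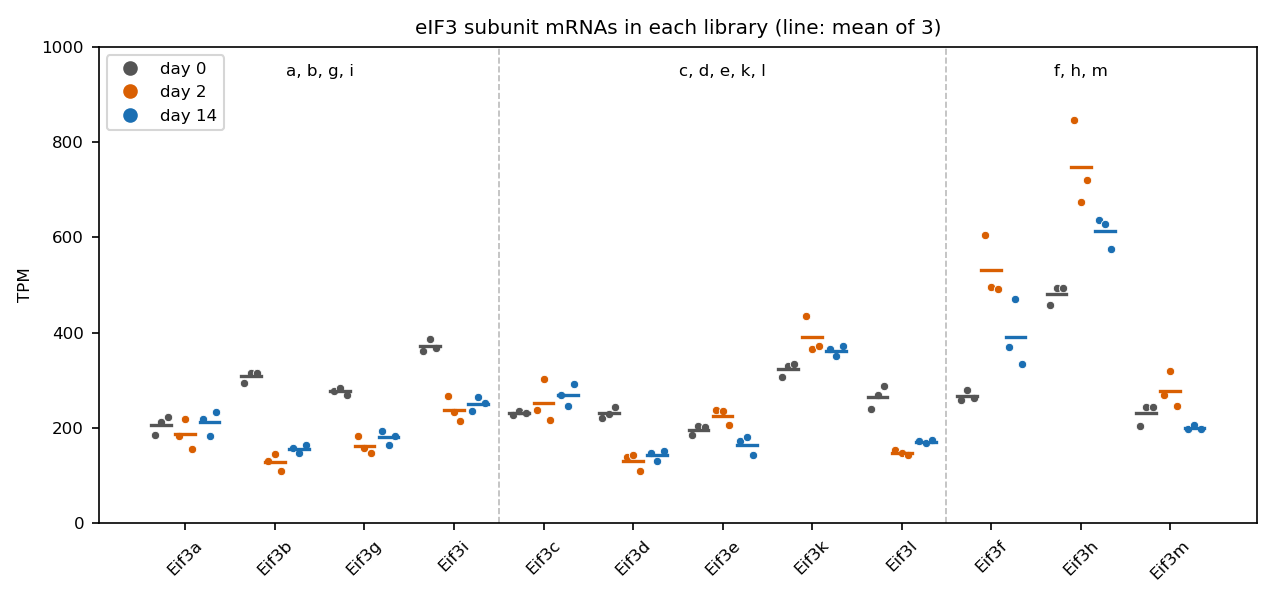
Level in TPM (y axis) of 12 eIF3 subunit genes in each library at day 0, day 2 and day 14, with a line at the mean of 3 libraries, ordered by structural neighbours (dashed lines). Eif3b, Eif3g, Eif3i, Eif3d and Eif3l sit lower at the later days, while Eif3f and Eif3h sit higher and Eif3h is the tallest in all 9 libraries.

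Within the cap-binding complex eIF4F and its helpers, the main helicase and the main scaffold fell while a rarer copy of each rose. Of 12 tested genes, 7 fell and 3 rose at day 2 and 6 fell and 3 rose at day 14, with medians of -0.51 and -0.40. The falls at both times include Eif4a3, which is not part of eIF4F. For all tested genes the shares were 31.9% lower and 27.1% higher at day 2, and 18.8% and 36.2% at day 14. After quantile normalization 5 fell and 3 rose at day 2. Under median-of-ratios scaling 8 fell and 2 rose at day 14. The helicase Eif4a1 had 1232, 1379 and 1418 TPM at day 0, 629.9, 709 and 591 at day 2 and 601, 658 and 722 at day 14. It changed by -1.06 ± 0.11 at day 2 (adjusted p = 3.76e-05) and -1.02 ± 0.11 at day 14 (adjusted p = 9.87e-05), and all 6 later libraries lay below the day 0 range. Its paralog Eif4a2, which does the same unwinding step and is the main form in tissues such as brain, had 110.2, 138 and 148 TPM at day 0, 245, 238 and 195 at day 2 and 331, 269.9 and 259.5 at day 14. The days did not overlap, and the change was 0.77 ± 0.15 at day 2 (adjusted p = 0.00178) and 1.11 ± 0.15 at day 14 (adjusted p = 0.000326). As a share of the 2 helicases together, Eif4a2 made up 8.93 ± 0.649% at day 0, 26.0 ± 1.75% at day 2 and 30.4 ± 4.67% at day 14, without overlap between day 0 and the later days. Eif4a3, a core part of the exon junction complex and not of eIF4F, had 199, 217 and 228 TPM at day 0, 95.1, 119 and 86.7 at day 2 and 108, 129 and 136 at day 14, a change of -1.10 ± 0.14 at day 2 and -0.79 ± 0.14 at day 14 (adjusted p = 0.000138 and 0.00136).

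The scaffolds showed a like exchange. Eif4g1, the main scaffold that joins eIF4E, eIF4A, eIF3 and the poly(A)-binding protein, had 437, 444 and 451 TPM at day 0, 170.3, 217 and 180.0 at day 2 and 226, 256 and 288 at day 14. The 3 days did not overlap, with a change of -1.24 ± 0.12 at day 2 (adjusted p = 2.94e-05) and -0.79 ± 0.12 at day 14 (adjusted p = 0.00061). Eif4g3, a second scaffold with the same partners, had 12.6, 11.1 and 12.1 TPM at day 0, 20.4, 24.6 and 18.4 at day 2 and 37.4, 35.9 and 31.1 at day 14, so that it was higher in each later sample than in any earlier one. Its change was 0.76 ± 0.13 at day 2 (adjusted p = 0.000946) and 1.47 ± 0.13 at day 14 (adjusted p = 5.06e-05), the largest rise of any called initiation gene at day 14. Its share of Eif4g1 plus Eif4g3 was 2.62 ± 0.186% at day 0, 10.04 ± 0.723% at day 2 and 12.1 ± 2.25% at day 14, so that Eif4g1 remained the more abundant in all 9 libraries. Eif4g2 (DAP5), which lacks the eIF4E-binding site and supports initiation without eIF4E, had 199, 252 and 246 TPM at day 0, 138, 221 and 155 at day 2 and 164, 201 and 208 at day 14. Its days overlapped and it was called at neither time (adjusted p = 0.0546 and 0.219). Of 22 alternatives, 6 called it lower at day 2, median-of-ratios scaling (adjusted p = 0.0348) among them, and 2 at day 14. Over the alternatives its day 2 change ranged from -0.66 to 0.026. With Eif4g1 lower and Eif4g2 not called, Eif4g1 made up 64.6 ± 2.45% of the 3 scaffold mRNAs at day 0, 49.9 ± 2.65% at day 2 and 53.2 ± 1.31% at day 14.

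Among the cap-binding genes, Eif4e, the limiting cap-binding subunit of eIF4F, had 50.4, 62.1 and 62.6 TPM at day 0, 25.1, 44.5 and 27.5 at day 2 and 34.0, 39.4 and 44.6 at day 14. Its later libraries were all below day 0, with a change of -0.87 ± 0.21 at day 2 (adjusted p = 0.00575) and -0.56 ± 0.21 at day 14 (adjusted p = 0.0456). The day 14 call was lost without any 1 of day 0 replicates 2 and 3, day 2 replicate 3 and day 14 replicates 1 and 2 (adjusted p 0.0541 to 0.13), with no filter on low values (adjusted p = 0.0683) and with no variance trend (adjusted p = 0.0509). Eif4e2 (4EHP), which occupies the cap without recruiting eIF4G and represses its targets, had 51.4, 52.8 and 49.4 TPM at day 0, 33.4, 36.4 and 34.0 at day 2 and 29.6, 33.3 and 44.5 at day 14. It too fell at both times, with a change of -0.55 ± 0.14 at day 2 (adjusted p = 0.00806, or 0.115 after quantile normalization) and -0.52 ± 0.14 at day 14 (adjusted p = 0.0119). Eif4e1b, a germline form, stayed near 1 TPM, with 0.468, 0.886 and 1.01 TPM at day 0, 1.15, 0.680 and 0.958 at day 2 and 0.840, 1.16 and 1.25 at day 14, and was not called. Eif4e3 had 0.217, 0.338 and 0.342 TPM at day 0, 0.757, 0.791 and 0.766 at day 2 and 0.688, 0.234 and 0.641 at day 14, under 1 TPM throughout.

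Of the helpers, Eif4b, which stimulates the helicase and is a target of S6 kinase, rose, while Eif4h, which shares its function, fell. Eif4b had 271, 274 and 280.3 TPM at day 0, 555, 469.9 and 484 at day 2 and 387, 362 and 309 at day 14. Day 2 was highest and no days overlapped, at 0.87 ± 0.11 (adjusted p = 0.000127) at day 2 and 0.35 ± 0.11 (adjusted p = 0.0197) at day 14. The day 14 call ended under median-of-ratios scaling (adjusted p = 0.694) and without day 0 replicate 1 or 2 or day 14 replicate 1 or 2 (adjusted p 0.0569 to 0.0664). Eif4h averaged 230.1 ± 12.8 TPM at day 2 and 188 ± 12.4 TPM at day 14, against 294 ± 7.04 TPM at day 0, a change of -0.35 ± 0.09 at day 2 and -0.64 ± 0.09 at day 14 (adjusted p = 0.00638 and 0.00034). Its day 2 value turned to 0.13 after quantile normalization (adjusted p = 0.114). Eif4enif1 (4E-T), which carries eIF4E into the nucleus and into silenced mRNA granules, was lower at day 2, with a change of -0.59 ± 0.15 (adjusted p = 0.0089) and was not called at day 14.

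**Figure D3:**
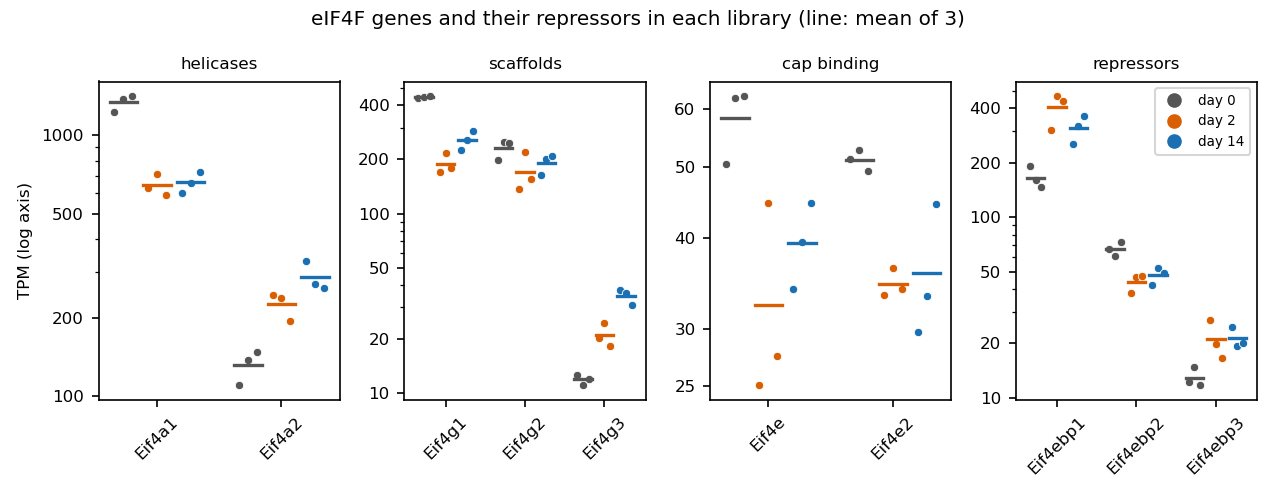
Level in TPM (log axis) of the eIF4A helicases, eIF4G scaffolds, cap-binding genes and Eif4ebp repressors in each library at day 0, day 2 and day 14, with a line at the mean of 3 libraries. Eif4a1, Eif4g1 and Eif4e sit lower at the later days, and Eif4a2, Eif4g3, Eif4ebp1 and Eif4ebp3 sit higher.

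The remaining factors act on the large subunit or after initiation. Eif5a, the hypusine-bearing factor that helps ribosomes through stalling sequences and bears the name of an initiation factor from its early assays, was the most abundant initiation gene at day 0. It had 1990, 1947 and 2017 TPM at day 0, 638, 899 and 736 at day 2 and 691, 856 and 1019 at day 14. The day 0 libraries lay close together and no later library passed 1019 TPM, with a change of -1.40 ± 0.16 at day 2 (adjusted p = 7.56e-05) and -1.23 ± 0.16 at day 14 (adjusted p = 0.000272). Its paralog Eif5a2 averaged 5.36 ± 0.289 TPM at day 0, 5.997 ± 1.59 TPM at day 2 and 4.09 ± 0.646 at day 14 and was not called. Eif6, which keeps free large subunits from joining small ones and takes part in their maturation, had 282, 293 and 293 TPM at day 0, 127, 123 and 111 at day 2 and 138, 143 and 173 at day 14. It was lower in each later sample, with a change of -1.26 ± 0.11 at day 2 and -0.94 ± 0.11 at day 14 (adjusted p = 1.3e-05 and 0.00014).

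The kinases of eIF2 alpha were called late or not at all. None of the 4 was called at day 2, against 59.0% of all tested genes. At an unadjusted p under 0.05, limma also gave 0 of the 4 genes, with a lowest unadjusted p of 0.0898. At day 14, 2 rose and 1 fell, where 55.1% of all tested genes were called, 36.2% higher and 18.8% lower. Under median-of-ratios scaling 1 rose and 1 fell at day 14, and likewise after quantile normalization. With the 20 most abundant rows or Mir6236 removed, 3 rose and 1 fell. Eif2ak3 (PERK), the kinase in the membrane of the endoplasmic reticulum, had 11.5, 10.8 and 9.68 TPM at day 0, 11.2, 9.70 and 8.56 at day 2 and 19.3, 16.6 and 16.6 at day 14. The day 14 libraries stood above the other 6, and those of day 2 and day 0 overlapped; the change was 0.67 ± 0.13 against day 0 (adjusted p = 0.00244) and 0.77 ± 0.13 against day 2 (adjusted p = 0.00261). Eif2ak2 (PKR), the kinase activated by double-stranded RNA, had 7.95, 8.73 and 9.999 TPM at day 0, 6.27, 7.08 and 8.34 at day 2 and 11.3, 13.7 and 13.4 at day 14. Again the day 14 libraries were above the other 6, by 0.48 ± 0.14 against day 0 (adjusted p = 0.0177) and 0.75 ± 0.14 against day 2 (adjusted p = 0.00456). The call against day 0 ended under median-of-ratios scaling (adjusted p = 0.267) and quantile normalization (adjusted p = 0.451), and without day 0 replicate 1 or 2 or day 14 replicate 2 or 3 (adjusted p 0.0521 to 0.0662).

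Eif2ak1 (HRI), known for sensing heme and mitochondrial stress, was the most abundant kinase mRNA, with 36.0, 37.3 and 35.3 TPM at day 0, 35.3, 32.8 and 29.6 at day 2 and 28.6, 27.7 and 31.1 at day 14. Its day 14 libraries were all below day 0, at -0.31 ± 0.10 (adjusted p = 0.0288), a call lost without any 1 of the day 0 replicates or day 14 replicates 1 and 2 (adjusted p 0.063 to 0.101). Eif2ak4 (GCN2), the kinase activated by uncharged tRNA, had 8.34, 7.28 and 7.29 TPM at day 0, 7.64, 8.86 and 7.31 at day 2 and 9.89, 9.58 and 8.94 at day 14. Its day 14 libraries were above the other 6, but its change of 0.28 ± 0.12 against day 0 was not called (adjusted p = 0.0711). It was called in 3 of 22 alternatives, removal of Mir6236 (adjusted p = 0.0365) among them. Over the alternatives this change ranged from -0.11 to 0.34. The share of Eif2ak1 among the 4 kinase mRNAs was 57.1 ± 0.943% at day 0, 56.5 ± 1.74% at day 2 and 42.3 ± 1.83% at day 14, and that of Eif2ak3 was 16.8 ± 1.22% at day 0, 17.0 ± 1.39% at day 2 and 25.4 ± 2.22% at day 14.

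**Figure D4:**
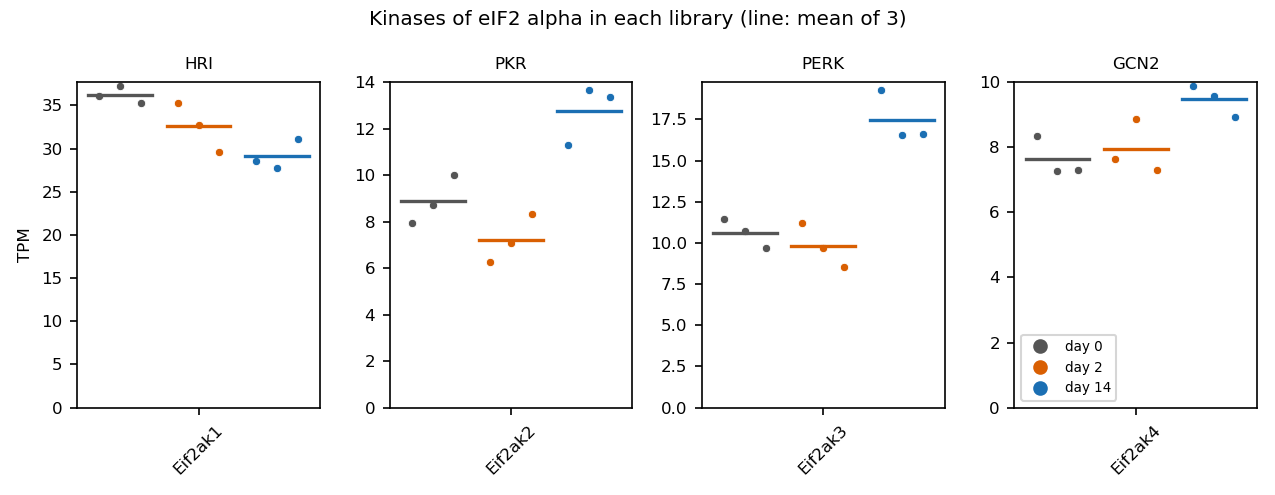
Level in TPM (y axis from 0, a scale for each gene) of the 4 eIF2 alpha kinase genes in each library at day 0, day 2 and day 14, with a line at the mean of 3 libraries. The day 14 points of Eif2ak2, Eif2ak3 and Eif2ak4 lie above the other 6, and those of Eif2ak1 lie below its day 0 points.

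The repressors of eIF4E moved in opposite directions, with 2 higher and 1 lower at each time (66.7% and 33.3%). Among all tested genes, 27.1% were higher and 31.9% lower at day 2, and 36.2% and 18.8% at day 14. Eif4ebp1, the most abundant of them and a known target of ATF4, had 190.5, 159.9 and 146 TPM at day 0, 304, 468 and 439.8 at day 2 and 252, 321 and 362 at day 14. Every later library was above every day 0 library, and its change of 1.27 ± 0.19 was the largest rise of any initiation gene at day 2 (adjusted p = 0.000444); at day 14 it was 0.90 ± 0.19 (adjusted p = 0.0037). Eif4ebp2, the form best known from brain, had 66.6, 60.9 and 73.1 TPM at day 0, 38.0, 46.6 and 47.3 at day 2 and 42.0, 52.1 and 49.4 at day 14. It fell by 0.60 ± 0.13 at day 2 (adjusted p = 0.00336, or 0.103 after quantile normalization) and by 0.48 ± 0.13 at day 14 (adjusted p = 0.012, or 0.0508 without day 0 replicate 3). Eif4ebp3 had 12.2, 14.9 and 11.8 TPM at day 0, 27, 19.9 and 16.6 at day 2 and 24.6, 19.3 and 20.2 at day 14, and was higher by 0.65 ± 0.18 at day 2 and 0.68 ± 0.18 at day 14 (adjusted p = 0.0125 and 0.0112). Its day 14 call ended under median-of-ratios scaling (adjusted p = 0.0647). With Eif4ebp1 higher and Eif4e lower, the ratio of their levels averaged 2.90 ± 0.775 at day 0, 12.9 ± 2.83 at day 2 and 7.89 ± 0.424 at day 14, with no overlap between any 2 days. The ratio of the 3 repressors together to Eif4e averaged 4.28 ± 0.926 at day 0, 15.01 ± 3.18 at day 2 and 9.67 ± 0.296 at day 14. Eif4ebp1 was 67.3 ± 3.79% of repressor mRNA at day 0, 85.8 ± 2.90% at day 2 and 81.6 ± 2.41% at day 14.

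Between day 14 and day 2, 13 of the 53 genes were called, 8 higher and 5 lower, while 31.2% of all tested genes were called, 27.4% higher and 3.79% lower. This balance turned with the scaling, since 3 rose and 12 fell under median-of-ratios scaling, 2 and 11 after quantile normalization, 5 and 9 without the 20 most abundant rows, and 7 and 7 without Mir6236. The calls over all tested genes moved as well, with 3474 higher and 481 lower as deposited, 1572 and 1485 under median-of-ratios scaling, 1470 and 1905 after quantile normalization, 2590 and 818 without the 20 most abundant rows, and 2909 and 699 without Mir6236. The median change was 0.15 for initiation genes and 0.247 for all tested genes. Relative to that median, the gap of -0.10 was -0.06 to -0.10 under the other scalings. The members that rose most were Eif1ad (0.83), Eif2ak3 (0.77) and Eif2ak2 (0.75), whose library values are given above, and those that fell most were Eif4b (-0.51), Eif3m (-0.46) and Eif3e (-0.46). Eif3e, which links eIF3 to eIF4G, had 171, 180.0 and 142 TPM at day 14 and 237, 234 and 206 at day 2, with adjusted p = 0.0141, and 184, 203 and 201 at day 0. Eif3m had adjusted p = 0.0164 and Eif4b adjusted p = 0.00706. Of the calls, those of Eif3e, Eif3m, Eif4b, Eif4g3, Eif2ak2 and Eif2ak3 held without any single library. The count of genes that rose was 5 without day 2 replicate 1, 4 without day 2 replicate 3, 5 without day 14 replicate 2 and 3 without day 14 replicate 3, and the count that fell was 3 without any 1 of the day 0 replicates. Eif4g3 was higher again at day 14 than at day 2, by 0.70 ± 0.13 (adjusted p = 0.00443), while Eif2s1, Eif2s3x, Eif4g1 and Eif6 were called higher at day 14 than at day 2 and stayed below day 0 in mean level.

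Promoter windows from RefSeq (mouse build GRCm38.p6, 250 bases before to 50 after each annotated start) were found for 42 of the 54 genes. Those without a window were Eif4e3, Eif3j2, Eif3h, Eif4e1b, Eif1a, Eif6, Eif3e, Eif4g2, Eif3i, Eif2b3, Eif4ebp1 and Eif4ebp3. The windows were searched on both strands for CACGTG (the E-box of MYC and TFE proteins), ACGTG (the core of the hypoxia response element, which lies inside CACGTG) and TGATGNAA (the core of the element of ATF4 with CHOP). CACGTG was in 10 of the 42 genes (23.8%), against 8.09% of 27025 genes with a window, and ACGTG in 18 (42.9%), against 21.8%. TGATGNAA was in 1 (2.38%), Eif2s3x, against 4.51%. Stretches of 60 bases around CACGTG are shown for the 8 genes that hold it and were called at day 2, because these members carry the same letters and moved in opposite directions: the first 5 fell and the last 3 rose. Each is written 5′ to 3′ along the gene's strand, with the motif in capitals. The stretches lie on chr16:20672646-20672705 (plus strand, Eif4g1), chr3:138527177-138527236 (plus, Eif4e), chr11:69672580-69672639 (minus, Eif4a1), chr5:134639473-134639532 (minus, Eif4h), chr11:69921428-69921487 (minus, Eif5a), chr7:108934320-108934379 (plus, Eif3f), chr7:28981900-28981959 (minus, Eif3k) and chr9:120492546-120492605 (plus, Eif1b).
Eif4g1: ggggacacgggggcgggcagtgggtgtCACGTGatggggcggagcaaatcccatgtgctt
Eif4e: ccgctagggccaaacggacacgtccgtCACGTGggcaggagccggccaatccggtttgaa
Eif4a1: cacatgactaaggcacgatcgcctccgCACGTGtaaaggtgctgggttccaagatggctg
Eif4h: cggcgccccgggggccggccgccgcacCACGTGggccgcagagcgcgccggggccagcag
Eif5a: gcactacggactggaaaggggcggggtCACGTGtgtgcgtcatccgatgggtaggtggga
Eif3f: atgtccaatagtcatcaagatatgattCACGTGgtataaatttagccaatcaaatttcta
Eif3k: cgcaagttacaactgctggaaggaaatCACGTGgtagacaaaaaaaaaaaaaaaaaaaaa
Eif1b: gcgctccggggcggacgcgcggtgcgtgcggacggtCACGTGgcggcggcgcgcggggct

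The motif shown began 54 bases before the annotated start in Eif4g1, 64 in Eif4e, 189 in Eif4a1, 96 in Eif4h, 74 in Eif5a, 68 in Eif3f, 44 in Eif3k and 24 in Eif1b. A further CACGTG began at position 16 after the start in Eif4g1 and at -228 in Eif4e. Eif5a has other annotated starts, one with another CACGTG at -178 and one from which the site shown lies at -185. The other 2 members with it, Eif3a and Eif5a2, were not called at day 2. Of the 10 members with CACGTG, 3 rose and 5 fell at day 2, and of the 32 with a window without it, 3 rose and 18 fell. At day 14, 1 rose and 5 fell with it, and 5 rose and 16 fell without it. Among all tested genes 27.1% rose and 31.9% fell at day 2, and 36.2% rose and 18.8% fell at day 14. The day 2 calls of Eif1b and Eif3k were lost without certain single libraries, and Eif4h turned to 0.13 after quantile normalization, as given above. These letters stood before genes of either direction, and a match is a description of the sequence only.

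Many mRNAs of the translation machinery begin with a C followed by a run of C or T, the 5′ terminal oligopyrimidine motif through which mTORC1 controls their translation. A start of that kind, with a run of at least 6 pyrimidines counted at the annotated start base, was in 2 of the 42 genes, against 2.05% of all genes with a window; this search was chosen after the values were seen. The members were Eif2s3x, which fell, and Eif3f, which rose. Their starts are shown as 15 bases before and 15 after the start (chrX:94212637-94212666, minus strand, and chr7:108934400-108934429, plus strand), with the pyrimidine run in capitals.
Eif2s3x: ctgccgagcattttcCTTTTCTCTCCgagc
Eif3f: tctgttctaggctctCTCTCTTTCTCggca

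Genes that act on the initiation factors were taken from 4 lists. Of 22 tested partners of eIF4E, eIF4A and the poly(A)-binding protein and inputs to mTORC1, 8 rose and 6 fell at day 2, and 7 rose and 2 fell at day 14 (5 rose and 7 fell there under median-of-ratios scaling). These are 36.4% higher and 27.3% lower at day 2, against 27.1% and 31.9% of all tested genes, and 31.8% higher and 9.09% lower at day 14, against 36.2% and 18.8%. The largest rise was in Pdcd4, an inhibitor that holds eIF4A away from RNA, with 6.36, 4.73 and 5.34 TPM at day 0, 32.9, 36.7 and 35.4 at day 2 and 75.2, 56.8 and 47.2 at day 14. The days did not overlap, and the change was 2.48 ± 0.17 at day 2 (adjusted p = 4.02e-06) and 3.21 ± 0.17 at day 14 (adjusted p = 6.96e-06). The largest fall at day 14 was in Dhx29, a helicase that helps scanning through structured leaders, which averaged 6.63 ± 1.09 TPM at day 14 against 16.0 ± 0.570 TPM at day 0 (-1.17 ± 0.22, adjusted p = 0.002).

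Of 14 regulators of eIF2 phosphorylation and of GCN2, 4 rose and 7 fell at day 2 (28.6% and 50%), and 5 rose and 3 fell at day 14 (35.7% and 21.4%), against the same shares of all tested genes as above. After quantile normalization 5 rose and 4 fell at day 2, and under median-of-ratios scaling 4 rose and 6 fell at day 14. Ddit3 (CHOP), a transcription factor made when eIF2 is phosphorylated, had 25.3, 20.4 and 16.7 TPM at day 0, 122, 255 and 222 at day 2 and 338, 129 and 234 at day 14. It was higher in each later sample, by 3.15 ± 0.37 at day 2 (adjusted p = 8.8e-05) and 3.34 ± 0.37 at day 14 (adjusted p = 0.000124). Ppp1ca, a catalytic subunit of the phosphatase that acts on eIF2, averaged 271 ± 15.7 TPM at day 14 against 652 ± 48.1 TPM at day 0 (-1.26 ± 0.09, adjusted p = 2.58e-05). Named after its values were seen, Ppp1r15a (GADD34), which directs that phosphatase to eIF2, averaged 17.6 ± 1.28 TPM at day 0, 57.5 ± 9.61 TPM at day 2 and 104 ± 36.5 at day 14, a change of 2.45 ± 0.22 at day 14 (adjusted p = 4.88e-05). Impact, an inhibitor of GCN2 activation, was also named after its values were seen and averaged 47.3 ± 13.2 TPM at day 14 against 14.6 ± 0.881 TPM at day 0 (1.6 ± 0.20, adjusted p = 0.000254).

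Of 8 tested factors of noncanonical initiation and recycling, 6 fell and 0 rose at day 2 in limma (0 also at an unadjusted p under 0.05), and 5 fell and 1 rose at day 14. The lower genes are 75.0% of the list at day 2 and 62.5% at day 14, against 31.9% and 18.8% of all tested genes. Denr and Mcts1, partners in a complex that recycles small subunits and restarts them, parted at day 14. Denr averaged 34.6 ± 5.97 TPM at day 14 against 62.3 ± 8.31 TPM at day 0 (-0.84 ± 0.18, adjusted p = 0.00403). Mcts1 averaged 39.5 ± 0.821 TPM at day 14 against 28.9 ± 4.24 TPM at day 0 (0.45 ± 0.13, adjusted p = 0.0167). The call of Mcts1 ended under median-of-ratios scaling (adjusted p = 0.279) and without day 0 replicate 1 (adjusted p = 0.0647) or 2 (adjusted p = 0.0506). Of 9 tested elongation genes, 3 rose and 4 fell at each time (33.3% and 44.4%, against 27.1% and 31.9% of all tested genes at day 2 and 36.2% and 18.8% at day 14). The largest rise at day 14 was in Eef1b2, an exchange factor for eEF1A, with 648 ± 50.7 TPM at day 14 against 416 ± 11.6 TPM at day 0 (0.64 ± 0.09, adjusted p = 0.000354). The largest fall at day 14 was in Dhps, which begins the hypusine modification of eIF5A, with 77.1, 85.5 and 83.3 TPM at day 0, 55.8, 55.1 and 49.4 at day 2 and 49.5, 44.8 and 42.6 at day 14 (-0.83 ± 0.10 at day 14, adjusted p = 0.000186). Dohh, the enzyme that completes that modification, was named after its values were seen and averaged 121 ± 4.04 TPM at day 0, 63.7 ± 6.22 TPM at day 2 and 67.7 ± 5.06 at day 14 (-0.83 ± 0.10 at day 14, adjusted p = 0.000229). Both enzymes and their substrate Eif5a were thus below every day 0 library in all 6 later ones.

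**Figure D5:**
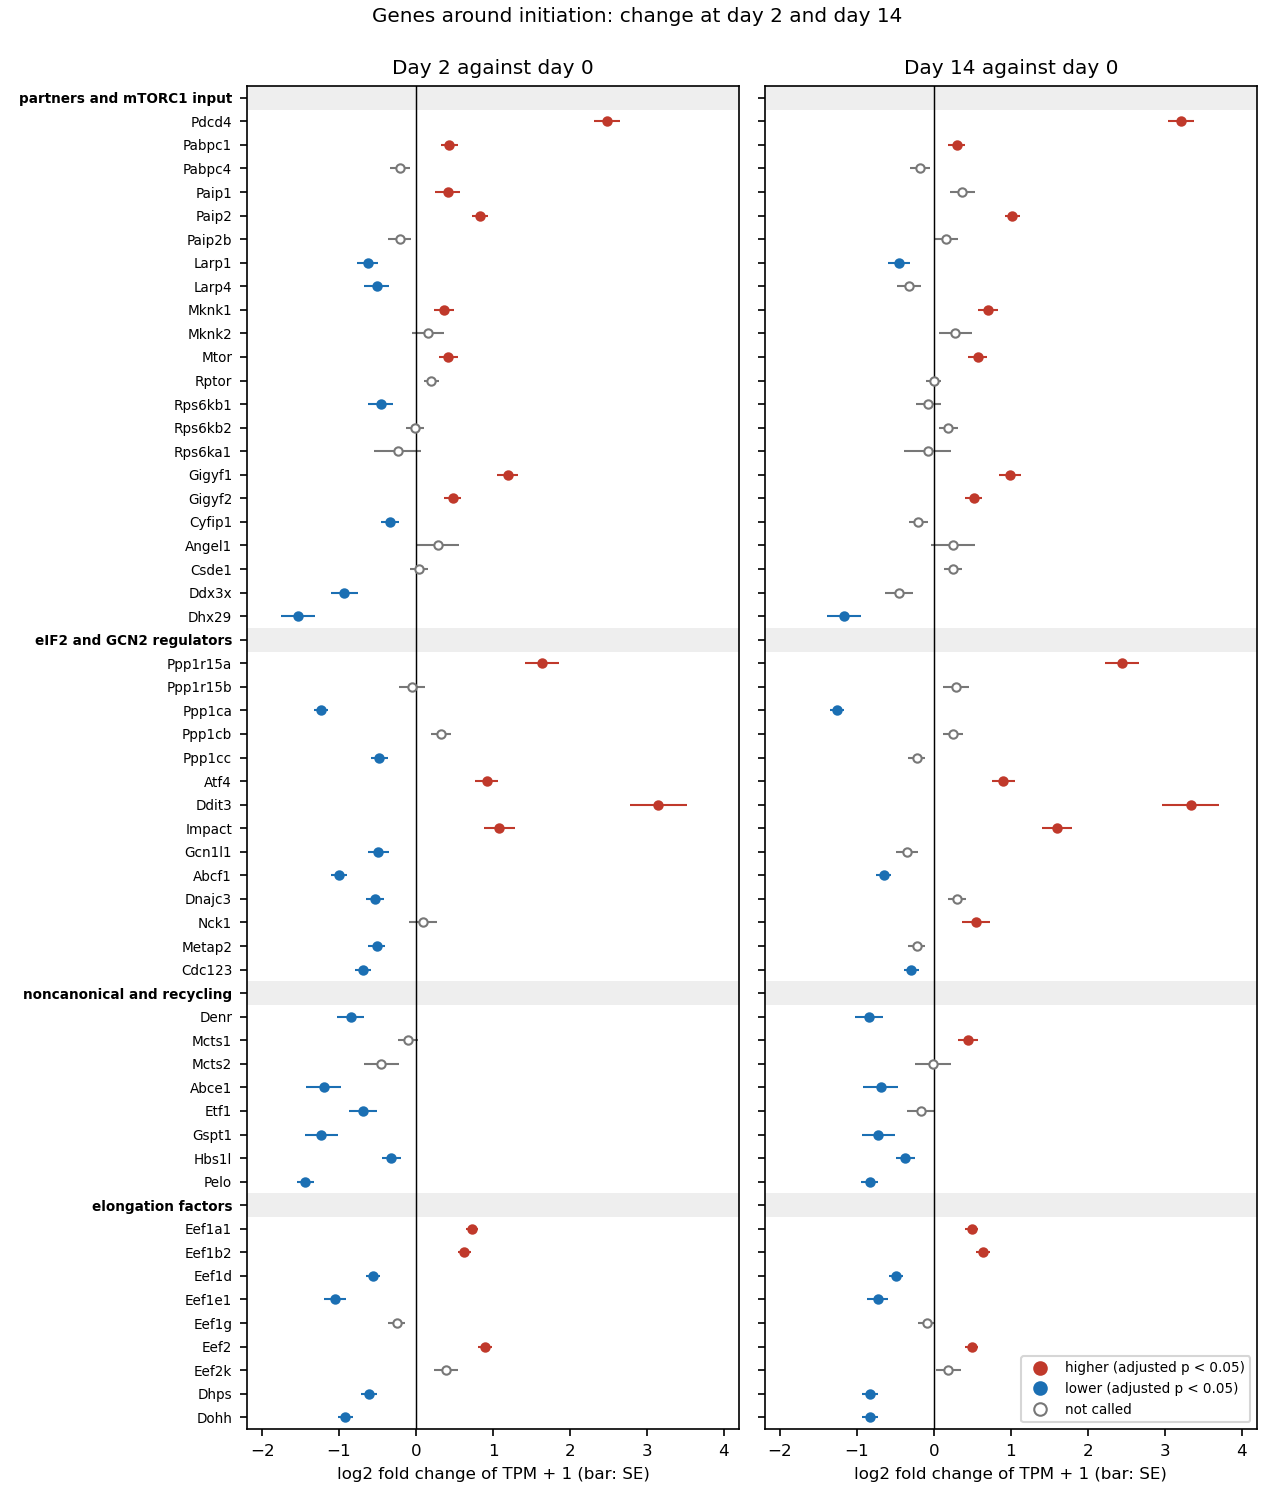
Log2 fold change of TPM + 1 (x axis; bars are SE) of the 53 tested genes of the 4 lists around initiation, at day 2 (left panel) and day 14 (right panel) against day 0; filled points passed an adjusted p of 0.05. Pdcd4 and Ddit3 lie farthest to the right in each panel, and 6 of 8 noncanonical and recycling genes at day 2 lie left of zero as filled points.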

How the data were processed

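RNA sequencing of 9 samples of the line 6620c1, 3 at each of day 0, day 2 and day 14, was analysed from 1 table of gene TPM. Per the submitters' processing notes the authors quantified transcripts with Salmon, and per the labels the RNA was total RNA with libraries made by a company. Which Salmon version, index, build and annotation they used is not given in the sources used here, and nor is what WT in the column names means. The deposited TPM values were used as they stand, with 0 columns left without a sample. TPM keep no counts, so depth is unknown.

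A row entered the fit if 3 or more libraries held it at 1 TPM or above (12693 of 24493, 11800 left out). Values of log2(TPM + 1) were fitted with limma 3.58.1 in R 4.3.3, with a mean per day, eBayes with a trend and Benjamini-Hochberg adjustment over all tested rows, two-sided, with calls at an adjusted p under 0.05. The fit was tested on simulated data. Sums, shares and ratios were computed per library in Python 3.11.15 (pandas 2.3.3), and figures were drawn with matplotlib 3.10.9. The members and the lists of related genes were chosen with earlier results of these data known. Values in every library are given for the called genes with the 3 largest changes in each direction of each comparison, for every measured Eif4ebp, Eif2ak, Eif4e, Eif4a and Eif4g gene, and for others whose description needs them. From the other lists, the called gene with the largest change at day 14 in each direction is named. The other values shown per library, and genes said to be so, were picked after their values were seen.

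Alternative settings used a pseudocount of 0.1 or 5, every row or those averaging 5 TPM or more, quantile normalization or median-of-ratios scaling, removal of the 20 most abundant rows or of Mir6236, robust variances or no variance trend, weights per sample, a replicate block, a fit to the 2 compared groups alone, and each library left out in turn.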

Additional observations from a re-analysis of the deposited data

Results flagged for a closer look

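The change from day 0 differed between day 14 and day 2 for 13 initiation genes, by the limma test of day 14 against day 2 with Benjamini-Hochberg adjustment (n = 3 each). Of the 53 tested initiation genes 15.1% were higher and 9.43% lower. Among all tested genes 31.2% were called, 27.4% higher and 3.79% lower. Eif1ad had changes of -0.73 at day 14 and -1.56 at day 2, both against day 0, a difference of 0.83 (adjusted p = 0.0163). Eif2s1 had changes of -0.33 at day 14 and -0.88 at day 2, a difference of 0.55 (adjusted p = 0.0155). Eif2s3x had changes of -0.65 at day 14 and -1.06 at day 2, a difference of 0.41 (adjusted p = 0.0245). Eif4g1 had changes of -0.79 at day 14 and -1.24 at day 2, a difference of 0.44 (adjusted p = 0.0218). Eif6 had changes of -0.94 at day 14 and -1.26 at day 2, a difference of 0.32 (adjusted p = 0.0459). Eif4g3 had changes of 1.47 at day 14 and 0.76 at day 2, a difference of 0.70 (adjusted p = 0.00443). The kinase genes Eif2ak2, at 0.48 at day 14 and -0.27 at day 2, and Eif2ak3, at 0.67 at day 14 and -0.11 at day 2, differed by 0.75 (adjusted p = 0.00456) and 0.77 (adjusted p = 0.00261).

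The differences below zero were in 3 eIF3 subunit genes and 2 helicase helpers. Eif3e had changes of -0.26 at day 14 and 0.20 at day 2, a difference of -0.46 (adjusted p = 0.0141), and Eif3m changes of -0.20 at day 14 and 0.26 at day 2, a difference of -0.46 (adjusted p = 0.0164). Eif3f had changes of 0.54 at day 14 and 0.99 at day 2, a difference of -0.45 (adjusted p = 0.0353). Eif4b had changes of 0.35 at day 14 and 0.87 at day 2, a difference of -0.51 (adjusted p = 0.00706), and Eif4h changes of -0.64 at day 14 and -0.35 at day 2, a difference of -0.29 (adjusted p = 0.0327). The differences above zero of Eif1ad, Eif2s1, Eif2s3x, Eif4g1, Eif6 and Eif2ak2 were no longer called after quantile normalization (adjusted p 0.0534 to 0.524). Leaving out 1 library ended the call of Eif1ad (day 14 replicate 3, adjusted p = 0.0518), of Eif2s1 (day 2 or day 14 replicate 3, 0.0538 and 0.054), and of both Eif2s3x and Eif4g1 (day 2 replicate 1 or 3, or day 14 replicate 2 or 3, 0.0572 to 0.0757). The call of Eif3f was lost without any library except day 2 or day 14 replicate 2 (adjusted p 0.0527 to 0.111), that of Eif4h without any except day 2 or day 14 replicate 3 (0.0515 to 0.0933), and that of Eif6 without any except day 14 replicate 1 (0.0583 to 0.141).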

How the results depend on the processing

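Of 3495 values of initiation genes under the alternatives, 3276 kept their side of the threshold (3172 with the same sign, and 104, not called under either setting, with the other), 113 lost a call, 104 gained one and 2 reversed. The reversed values were Eif3a at day 2, -0.16 as reported and 0.35 after quantile normalization, and Eif4h at day 2, -0.35 and 0.13. Among related genes, Cdh1 at day 2 turned to 0.38 after quantile normalization, and under median-of-ratios scaling Rptor at day 14 against day 0 turned to -0.28 and Eef1b2 at day 14 against day 2 to -0.28. The cause was not tested. Genes higher at day 2 numbered 17 after quantile normalization and 15 without the 20 most abundant rows, against 9. Genes higher at day 14 against day 0 numbered 4 under median-of-ratios scaling, against 9. The counts over all tested genes moved under these settings too, as given above. Genes higher at day 14 against day 2 numbered 3 under median-of-ratios scaling, 2 after quantile normalization, 5 without the 20 most abundant rows and 5 with only the 2 groups compared, against 8, and genes lower numbered 12, 11, 9 and 3, against 5. With each library left out in turn, 7 to 9 rose and 26 to 29 fell at day 2, 6 to 10 rose and 19 to 25 fell at day 14 against day 0, and 3 to 11 rose and 3 to 5 fell at day 14 against day 2.

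Samples of the same replicate number correlated at -0.0709 to 0.318 once the day means were taken out. The highest value, 0.318, was that of day 2 replicate 1 with day 14 replicate 1. The labels do not say whether the numbers pair the samples, and correlations of this size cannot exclude it. With a replicate block, 9 rose and 29 fell at day 2, 9 and 25 at day 14 against day 0, and 7 and 4 at day 14 against day 2. TPM do not give the depth, and a shift in total RNA per cell would not be visible in them.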
